A study of Mus musculus with 50 samples.

Results

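The change between 6h and 12h of activation was examined in CD8+ T cells of WT mice, by setting the 5 libraries taken at 12h against the 5 taken at 6h from the same animals. These are 10 of the 50 libraries of the series, chosen by genotype and time label, and mice 1 to 5 each gave 1 library per time. Cells came from the spleens of 10-week-old mice on a background labelled C567BL/6J, were selected with magnetic beads carrying anti-CD8a, and were cultured on plate-bound anti-CD3e with anti-CD28 in the medium. The antibodies stand in for antigen and costimulation. The same step in 5 knockout mice (KO), cultured and sampled in the same way, served as the nearest comparison. Bead selection for CD8a does not separate naive from memory cells, and it leaves any other cell that carries CD8a.

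When a CD8+ T cell is stimulated through its receptor, calcium, MAP kinase and NF-kB signals switch on a first set of genes that encode transcription factors and feedback inhibitors. Secretory and metabolic genes follow, the cell enlarges, and it then crosses from the resting state into the first round of DNA replication. The hours between the early transcription burst and the first division are when this hand-over is known to take place in cultured T cells.

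Counted reads per library ran from 18699720 to 24819014 in these 10 libraries. Levels are given as CPM, counts divided by the scaled library size, which do not correct for gene length and are therefore compared between samples and not between genes. Changes are log2 fold changes of 12h over 6h from a paired edgeR quasi-likelihood fit, written as the value ± an approximate standard error (SE). This SE is the absolute change divided by the square root of the F statistic of its test, so it adds nothing to the p value. A gene was called at a Benjamini-Hochberg adjusted p under 0.05. The verbs rose and fell are used for called genes alone.

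The WT mice did not form 1 group. The 10 markers of CD8 T cells were detected in all 10 libraries and summed to between 5766 and 7309 CPM at 12h and between 6267 and 8015 CPM at 6h, with Trbc2, a constant gene of the receptor beta chain, the largest member in each. The coreceptor gene Cd8a had 258, 820.2, 645, 429 and 718 CPM at 12h in WT mice 1 to 5, against 254, 776, 592, 316 and 667 CPM at 6h. Trbc1, the other beta chain constant gene, had 73.4, 844, 688, 310.2 and 932 CPM at 12h in WT mice 1 to 5, against 97.8, 1057, 910.0, 299 and 1113 CPM at 6h, so both genes were lowest in mouse 1 and next lowest in mouse 4 at each time. Mice 1 and 4 also held genes of immature thymocytes, the dividing T cell precursors of the thymus. Rag1, which cuts the receptor genes for recombination, had 266, 0.125, 0.599, 99.2 and 0.325 CPM at 12h in WT mice 1 to 5, against 599, 0.291, 1.78, 402 and 0.283 CPM at 6h. Dntt, the polymerase that adds bases at receptor gene joints, had 301, 1.00, 0.708, 142 and 0.488 CPM at 12h in WT mice 1 to 5, against 935, 2.03, 2.54, 463 and 1.60 CPM at 6h. Cd4 had 86.0 and 44.9 CPM at 12h in mice 1 and 4, against 48.4 and 32.2 CPM at 6h, and it stayed under 1 CPM in the libraries of mice 2, 3 and 5. In mice 1 and 4 these levels were thus far above those of the other mice at both times. The proliferation gene Mki67 had 387, 10.0, 12.0, 193 and 6.56 CPM at 12h in WT mice 1 to 5, against 1129.8, 13.03, 13.6, 953 and 11.1 CPM at 6h, and again mice 1 and 4 stood apart. Of the 11 markers of immature thymocytes, 3 fell in the fit of 5 mice and 0 rose, and the summed level in mice 1 and 4 was 1475 and 1026 CPM at 12h, against 2743 and 1827 CPM at 6h. That list includes Cd8a and Themis, which mature CD8 T cells also carry. Markers of erythroid cells and platelets summed to 58.3 and 55.8 CPM at 12h in mice 1 and 4, against 51.9 and 41.0 CPM at 6h. In mice 2, 3 and 5 the sums lay between 3.03 and 4.97 CPM at 12h, against sums between 5.00 and 8.01 CPM at 6h. Mice 1 and 4 had been marked beforehand, by an earlier analysis of these same data, for a thymocyte-like, cycling profile. The levels above therefore describe this split and are no separate support for it. The part of these other cells in the results of mice 1 and 4 was not tested. The counts of called genes are given with all 5 mice and again without mice 1 and 4.

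With all 5 mice, 492 of 11669 tested genes changed, 275 rising (2.36% of those tested) and 217 falling (1.86%). Without mice 1 and 4, 6710 of 11653 changed, 3362 rising (28.9%) and 3348 falling (28.7%), and 1350 of the called genes changed by more than 1 on the log2 scale. Of the 483 genes called with 5 mice and tested in the other fit, 478 were called there in the same direction and 0 in the opposite one. These 478 make up 7.21% of the 6630 genes called with 3 mice and tested with 5. The libraries of mice 2, 3 and 5 are in both fits, so this overlap is not independent support. The estimated dispersion, a measure of the spread that remains between mice after pairing, was 0.0503 with 5 mice and 0.00651 with mice 2, 3 and 5. Over the genes that rose in mice 2, 3 and 5, the median log2 change was -0.18 in mouse 1 and 0.10 in mouse 4, so mouse 1 went the other way on balance and mouse 4 hardly moved. Over the genes that fell in mice 2, 3 and 5, it was 0.21 in mouse 1 and -0.14 in mouse 4. The count with 5 mice depended on which mouse was left out. It was 2640 without mouse 1, 7 without mouse 2, 2 without mouse 3, 18 without mouse 4 and 3 without mouse 5. With mice 2, 3 and 5, leaving out 1 of them left 5303 to 6075 called genes, while 1672 were called with all times of the same mice in the fit and 2725 with all groups of both genotypes. The gene groups are described mainly in mice 2, 3 and 5, where more than 1 in 2 tested genes passed, so each count is read against 28.9% rising and 28.7% falling. Where no fit is named for the change of a listed gene, it is that of mice 2, 3 and 5.

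**Figure D1:**
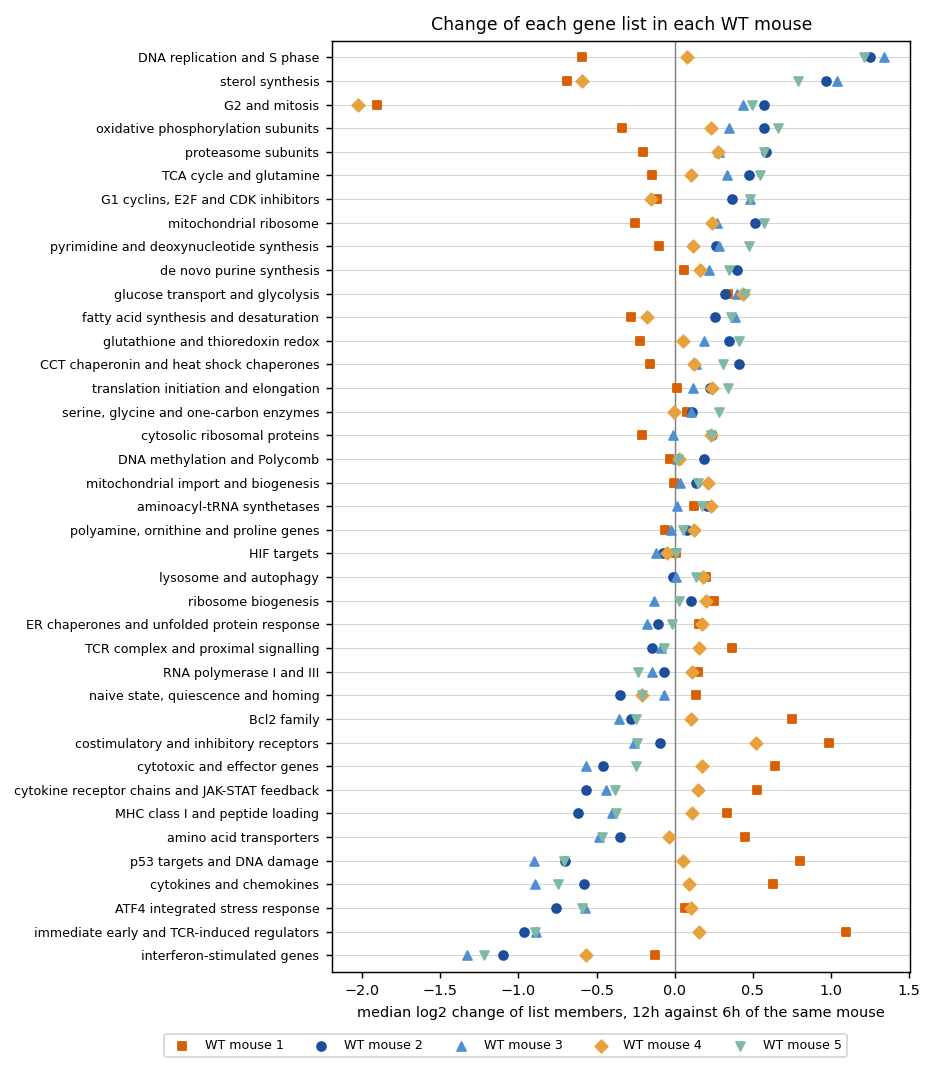
Median log2 change of 12h against 6h over the members of each of 39 gene lists (rows), with 1 symbol per WT mouse. Mice 2, 3 and 5 lie close together, from about 1.2 to 1.3 for DNA replication to about -1.1 to -1.3 for interferon-stimulated genes, while mice 1 and 4 lie near 0 or on the other side in many rows, with G2 and mitosis genes at -1.91 and -2.02.

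**Figure D2:**
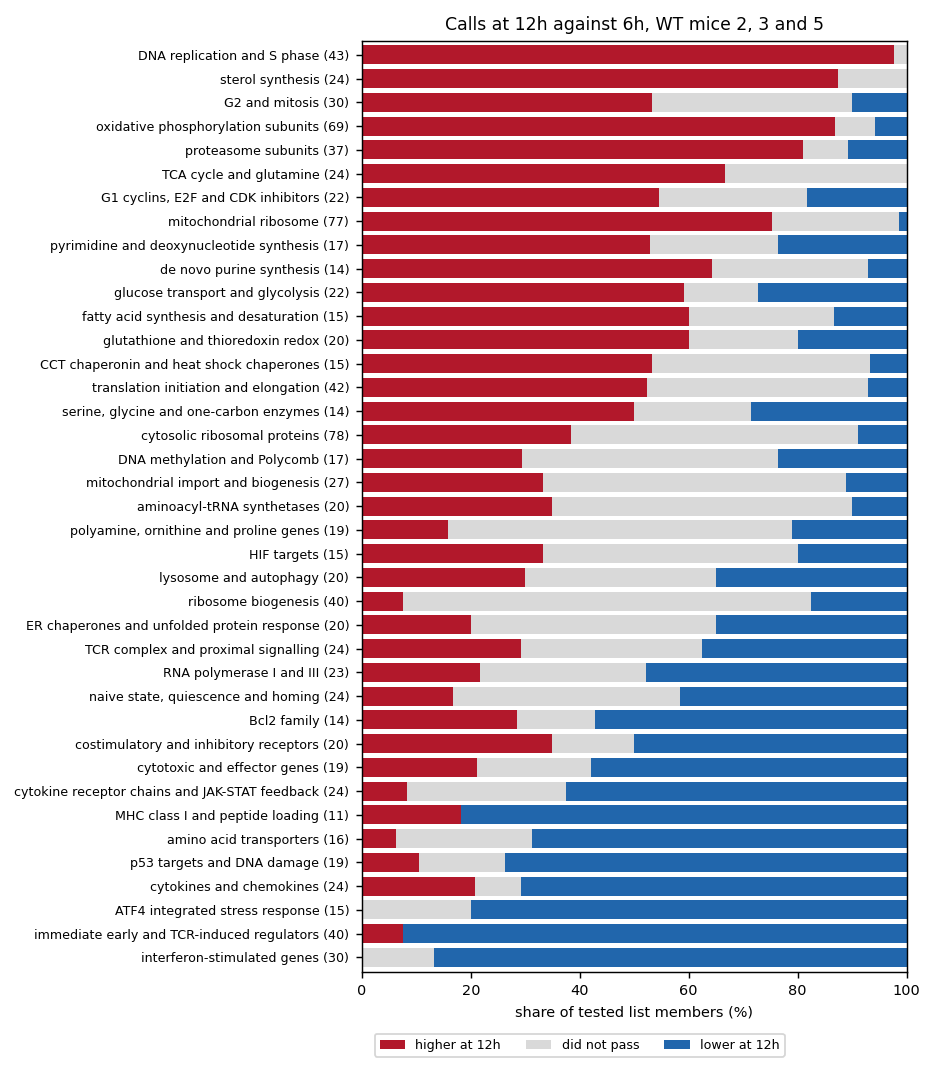
Share of the tested members of each gene list that rose (red, left), did not pass (grey) or fell (blue, right) at 12h against 6h in WT mice 2, 3 and 5, with the number tested in brackets. Of 43 DNA replication genes 42 rose, and of 30 interferon-stimulated genes 26 fell.

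Among named genes called with 5 mice and higher at 12h in each mouse, with at least 20 CPM at the higher time, Gzmb changed most. The genes after it are not given in order of size. Gzmb, the serine protease granzyme B that kills target cells, had 6.30, 844, 546, 299 and 696 CPM at 12h in WT mice 1 to 5, against 0.753, 55.7, 55.1, 21.1 and 61.3 CPM at 6h. Its level at 12h was above every 6h level in mice 2 to 5, and mouse 1 had the lowest levels of the 5 at both times and was higher at 12h too. Its log2 change was 3.56 ± 0.15 in the fit of 5 mice (adjusted p = 0.000664) and 3.56 ± 0.11 in the fit of mice 2, 3 and 5. Ccl9, a chemokine, had 10.9, 194, 178, 63.4 and 262 CPM at 12h in WT mice 1 to 5, against 3.01, 50.5, 59.1, 20.5 and 83.7 CPM at 6h, with a log2 change of 1.72 ± 0.09 (adjusted p = 0.00162). Ccr7, the receptor that guides T cells into lymph nodes, had 77.6, 1051, 1018, 412 and 1179 CPM at 12h in WT mice 1 to 5, against 41.4, 328, 297, 123 and 244 CPM at 6h. Every mouse had more Ccr7 at 12h than at 6h, and the log2 change was 1.67 ± 0.19 (adjusted p = 0.011). Lag3, an inhibitory receptor, had 36.3, 60.7, 78.7, 73.5 and 63.5 CPM at 12h in WT mice 1 to 5, against 14.5, 21.8, 20.9, 17.1 and 23 CPM at 6h. The 2 times did not overlap for Lag3 across the 10 libraries, and its log2 change was 1.65 ± 0.15 (adjusted p = 0.00824). Cd226, a costimulatory receptor of cytotoxic cells, changed by 1.68 ± 0.11, the chemokine Ccl1 by 1.69 ± 0.29, the transcription factor gene Zbtb32 by 1.73 ± 0.15, and Tgfbr3, a co-receptor for TGF-beta, by 2.57 ± 0.45. Stk39, a kinase that regulates ion transport, changed by 2.402 ± 0.17, Cyth3, an exchange factor for ARF GTPases, by 1.63 ± 0.18, and Gprin3 and Plp2 by 2.67 ± 0.20 and 1.86 ± 0.31.

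Several of the largest falls shared by all 5 mice were of interferon-stimulated genes, and the deepest was that of Oasl2. Oasl2, of the oligoadenylate synthetase-like family, had 9.13, 6.02, 3.70, 9.09 and 3.25 CPM at 12h in WT mice 1 to 5, against 22.7, 23.9, 18.2, 51.7 and 21.7 CPM at 6h. Each 12h level of Oasl2 was below each 6h level, and the log2 change was -2.17 ± 0.22 (adjusted p = 0.00915). Rtp4, Parp12, Ifi213 and Gbp7, which interferon also induces, changed by -1.72 ± 0.33, -1.53 ± 0.16, -1.50 ± 0.31 and -1.38 ± 0.26. Srxn1, which repairs oxidised peroxiredoxins, changed by -1.75 ± 0.20, and Kif15, a mitotic kinesin, by -1.69 ± 0.14. Dntt changed by -1.59 ± 0.13 and Cd163l1, a scavenger receptor gene, by -2.11 ± 0.18, both from much higher levels in mice 1 and 4. Jchain, the joining chain of secreted immunoglobulins, had 31.6, 95.8, 57.8, 54.9 and 85.0 CPM at 12h in WT mice 1 to 5, against 67.7, 219, 205, 123 and 218 CPM at 6h. Beside it, the 10 B cell markers summed to 449, 848, 569, 611 and 649 CPM at 12h in WT mice 1 to 5, against 630, 1545, 989, 833 and 929 CPM at 6h, nearly all of it Ighm. In mice 2, 3 and 5, 5 of the 10 B cell markers fell and 0 rose. In bulk libraries fewer cells of a type and less RNA per cell cannot be told apart. None of the calls of the fit of 5 mice for the genes named here held under each of the alternatives tried, which include leaving out each mouse.

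**Figure D3:**
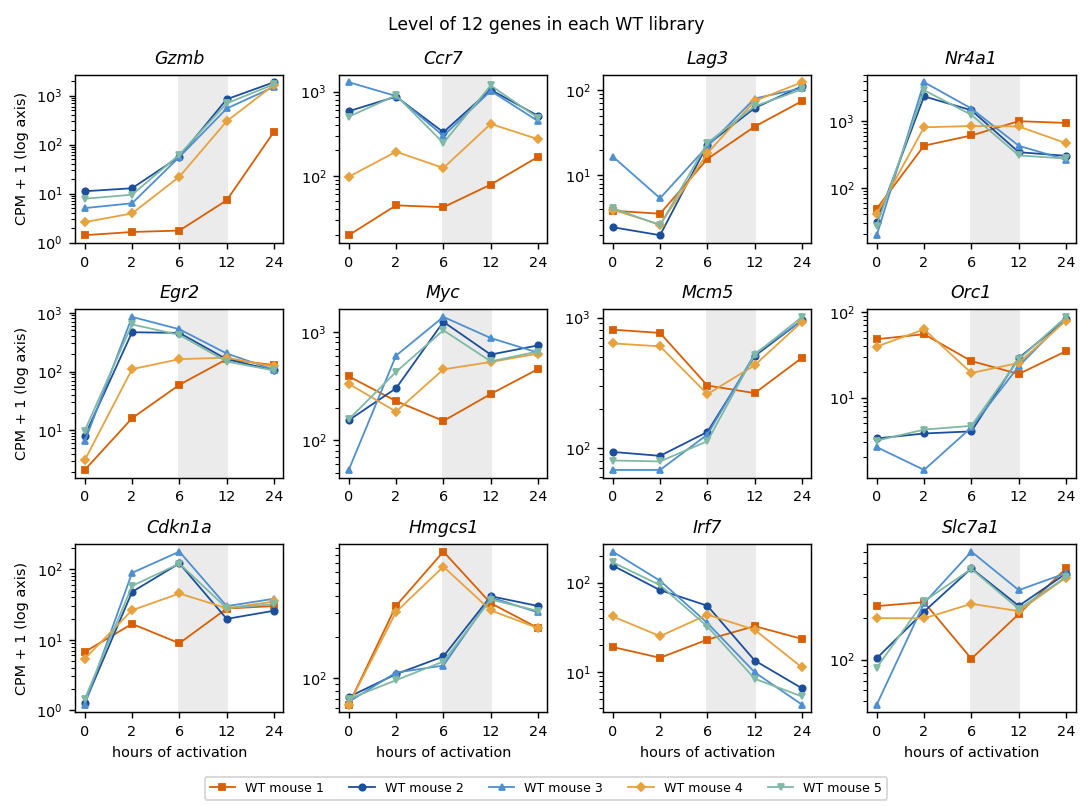
Level (CPM + 1, log axis) of 12 genes at 0, 2, 6, 12 and 24 hours of activation (x axis, not to scale), with 1 line per WT mouse and the 6h to 12h step shaded. Gzmb, Ccr7 and Lag3 are higher at 12h than at 6h in each mouse, whereas Nr4a1, Egr2, Mcm5, Orc1, Cdkn1a and Hmgcs1 run differently in mice 1 and 4.

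Receptor-induced regulators fell together in mice 2, 3 and 5. Of 40 listed immediate early and receptor-induced genes, 37 fell and 3 rose there, with a median log2 change of -0.88, against -0.01 over all tested genes. With 5 mice, 0 of 39 tested members were called in either direction, and the median log2 change of mice 1 to 5 was 1.10, -0.96, -0.89, 0.16 and -0.89. Nr4a1, an orphan nuclear receptor whose transcript follows receptor signal strength, had 1006, 344, 429.6, 838 and 307 CPM at 12h in WT mice 1 to 5, against 613, 1466, 1559, 850.0 and 1253 CPM at 6h. In mice 2, 3 and 5 the 12h levels were all below the 6h levels, and the log2 change was -2.01 ± 0.11 (adjusted p = 8.71e-76). Mouse 1 went up and mouse 4 stayed level. Nr4a2 and Nr4a3, of the same receptor family, changed by -2.18 ± 0.10 and -1.71 ± 0.10 in mice 2, 3 and 5, while in mouse 1 the log2 difference was 2.45 and 2.33. Egr1, Egr2 and Egr3, zinc finger factors downstream of MAP kinase and NFAT, changed by -1.54 ± 0.10, -1.47 ± 0.10 and -1.44 ± 0.09. Egr2 had 161, 202 and 147 CPM at 12h in WT mice 2, 3 and 5, against 453, 523 and 419 CPM at 6h, and the 2 times did not overlap.

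Among AP-1 genes, Fosl2 fell most, with 61.3, 42.3, 57.7, 50.8 and 39.1 CPM at 12h in WT mice 1 to 5, against 21.5, 192, 227, 72.5 and 208 CPM at 6h. Its log2 change in mice 2, 3 and 5 was -2.20 ± 0.10 (adjusted p = 2.8e-110). Fos and Junb changed by -1.87 ± 0.11 and -1.21 ± 0.10, and Fosl1, also of the Fos group, by -0.97 ± 0.10. The 3 members that rose were Batf3 (1.41 ± 0.47), Batf (0.59 ± 0.11) and Jund (0.35 ± 0.10), the first 2 being AP-1 factors that pair with IRF4. Irf4 had 1763, 1708 and 1869.8 CPM at 12h in WT mice 2, 3 and 5, against 2389, 2618 and 2655 CPM at 6h, a change of -0.53 ± 0.11. Myc, the growth regulator, had 617, 877 and 534 CPM at 12h in WT mice 2, 3 and 5, against 1237, 1374 and 1034 CPM at 6h, a change of -0.88 ± 0.10. The point estimates for Irf4 and Myc were smaller falls than those of the 3 Nr4a genes, and the sizes were not tested against each other. Of further members, Nfkbid, an inhibitor-like NF-kB cofactor, changed by -1.21 ± 0.10, Tnfaip3, which removes ubiquitin in the NF-kB pathway, by -0.85 ± 0.10, Dusp2, a MAP kinase phosphatase, by -0.82 ± 0.10, and Nfatc1, the NFAT gene induced by its own pathway, by -1.23 ± 0.10. Map2k3, a kinase of the p38 pathway, changed by -2.20 ± 0.10 and lay outside the list.

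Cytokine and chemokine genes mostly fell, with a few exceptions that rose. For this list, of 24 members tested in mice 2, 3 and 5, 5 rose and 17 fell, and the median log2 change was -0.78. With 5 mice 4 rose and 1 fell of 25 tested. Ifng, the main effector cytokine of CD8 T cells, had 17.2, 235, 152, 123 and 221 CPM at 12h in WT mice 1 to 5, against 10.4, 129, 106, 41.3 and 131 CPM at 6h. Ifng was higher at 12h than at 6h within each mouse, and the log2 change was 0.88 ± 0.16 with 5 mice (adjusted p = 0.0379) and 0.70 ± 0.09 with mice 2, 3 and 5. Il2, the T cell growth factor, had 25.5, 24.5 and 22.4 CPM at 12h in WT mice 2, 3 and 5, against 38.3, 44.8 and 41.7 CPM at 6h, a change of -0.80 ± 0.10. Tnf had 347, 300.2 and 323 CPM at 12h in WT mice 2, 3 and 5, against 683, 598 and 622 CPM at 6h, a change of -0.99 ± 0.10. Thus Il2 and Tnf fell while Ifng rose over the same hours. The chemokine genes Xcl1, Ccl3 and Ccl4, which attract dendritic cells, macrophages and other T cells, changed by -0.79 ± 0.11, -0.64 ± 0.11 and -0.77 ± 0.11. Cxcl10, an interferon-induced chemokine, had 16.6, 6.76 and 11.9 CPM at 12h in WT mice 2, 3 and 5, against 80.6, 60.8 and 80.0 CPM at 6h, and its change of -2.70 ± 0.11 was the deepest fall among the named genes of the list. Lif, a cytokine of the IL-6 family, changed by -1.16 ± 0.10. Of the TNF ligand genes, Tnfsf14 (LIGHT) changed by -1.58 ± 0.10, whereas Tnfsf10, the death ligand TRAIL, rose by 1.71 ± 0.11 and had 36.6, 34.2 and 37.2 CPM at 12h in WT mice 2, 3 and 5, against 11.4, 10.1 and 11.3 CPM at 6h.

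Cytotoxic and effector genes split. Of 19 members tested in mice 2, 3 and 5, 4 rose and 11 fell, with a median of -0.47, and with 5 mice 3 of 18 rose and 2 fell. Besides Gzmb the rising members were Eomes, Id2 and Nkg7. Eomes, a T-box factor of effector and memory CD8 cells, had 12.1, 81.1, 65.3, 66.9 and 58.3 CPM at 12h in WT mice 1 to 5, against 4.18, 33.1, 27.1, 15.8 and 31.1 CPM at 6h. Each mouse had more Eomes at 12h, and the log2 change was 1.41 ± 0.18 with 5 mice (adjusted p = 0.0166). Tbx21, the related factor T-bet, had 56.0, 64.9 and 39.4 CPM at 12h in WT mice 2, 3 and 5, against 157, 131 and 109 CPM at 6h, a change of -1.34 ± 0.09, so the 2 T-box genes moved in opposite directions. Nkg7, a granule membrane protein gene, changed by 0.48 ± 0.10 and Id2, an inhibitor of E proteins, by 0.66 ± 0.10. Prf1, the pore protein perforin, changed by -0.47 ± 0.09, and the granzymes Gzma, Gzmk and Gzmm by -1.23 ± 0.16, -1.17 ± 0.31 and -1.30 ± 0.22. Klrg1 and Cx3cr1, markers of effector cells, changed by -1.69 ± 0.35 and -1.10 ± 0.23. Eomes is also among the 5 NK cell markers used. The other 4 were under 7 CPM in each library, and both of those that were tested fell in mice 2, 3 and 5, Klrb1c at -2.11 ± 0.37 and Klre1 at -0.57 ± 0.18. These 2 markers moved in the direction of Gzma, Gzmk, Gzmm, Klrg1 and Cx3cr1, and the part of such cells in these falls was not tested.

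Of 20 costimulatory and inhibitory receptors, 7 rose and 10 fell in mice 2, 3 and 5, and with 5 mice 5 rose and 0 fell. Tnfrsf4 (OX40) had 42.4, 45.5 and 56.6 CPM at 12h in WT mice 2, 3 and 5, against 16.8, 17.2 and 18.7 CPM at 6h, a change of 1.43 ± 0.10. Cd28, the receptor for the costimulatory antibody, had 877, 812, 796, 721 and 799 CPM at 12h in WT mice 1 to 5, against 619.7, 354, 377, 503 and 374 CPM at 6h. No 12h level of Cd28 was under any 6h level, and its log2 change was 0.87 ± 0.13 with 5 mice (adjusted p = 0.026). Cd200, Ctla4 and Cd44 changed by 1.23 ± 0.09, 1.30 ± 0.11 and 0.71 ± 0.10, the last being the adhesion receptor that marks activated cells. Among the falling receptors, Cd69, an early activation marker that holds cells in tissue, had 628, 465 and 632 CPM at 12h in WT mice 2, 3 and 5, against 1464, 1365 and 1780.3 CPM at 6h, a change of -1.44 ± 0.11. Slamf7 changed by -1.55 ± 0.10, Cd160 by -1.21 ± 0.10 and Tnfrsf9 (4-1BB) by -0.82 ± 0.11.

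Of 24 cytokine receptor chains and JAK-STAT feedback genes, 15 fell and 2 rose in mice 2, 3 and 5, and with 5 mice 3 fell and 2 rose. Il7r, the receptor of the survival cytokine IL-7, had 101, 49.2 and 47.5 CPM at 12h in WT mice 2, 3 and 5, against 206, 119 and 159 CPM at 6h, a change of -1.35 ± 0.09. Ifngr1 changed by -1.17 ± 0.09, Il15ra by -1.16 ± 0.10 and Socs1, a JAK inhibitor, by -1.01 ± 0.10. Il2ra, the high-affinity IL-2 receptor chain, had 825, 843 and 769.8 CPM at 12h in WT mice 2, 3 and 5, against 862, 1029.6 and 950.0 CPM at 6h, with a small change of -0.23 ± 0.10 (adjusted p = 0.0421). The 2 risers in mice 2, 3 and 5 were Socs2 (2.35 ± 0.23) and the kinase gene Pim2 (1.22 ± 0.10), both targets of STAT5. Pim2 had 44.1, 328, 400.1, 199 and 297 CPM at 12h in WT mice 1 to 5, against 25.2, 173, 127, 67.4 and 136 CPM at 6h. In the T cell receptor complex and its proximal signalling, changes were mixed, with 7 rising and 9 falling of 24 and a median of -0.13. With 5 mice 1 rose and 0 fell. Cd3d, Cd3g and Cd3e changed by 0.32 ± 0.10, 0.26 ± 0.10 and 0.23 ± 0.10, the coreceptor gene Cd8a by 0.09 ± 0.10 (adjusted p = 0.466), and Sla, an adaptor that lowers receptor levels, by -1.50 ± 0.10.

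Genes of the resting state and of homing fell in part, apart from Ccr7. Of 24 members tested in mice 2, 3 and 5, 10 fell and 4 rose, and with 5 mice 2 of 23 fell and 3 rose. Klf2, the factor that maintains quiescence and exit from lymphoid organs, had 28.2, 36.2 and 21.0 CPM at 12h in WT mice 2, 3 and 5, against 104, 73.4 and 55.2 CPM at 6h, a change of -1.45 ± 0.10. S1pr1, the exit receptor it controls, changed by -1.14 ± 0.10. Btg2, an antiproliferative gene, changed by -1.60 ± 0.10 and Satb1, a chromatin organiser, by -1.43 ± 0.10. Tcf7, Lef1 and Foxo1, factors of naive and memory cells, gave 0.01 ± 0.10 (adjusted p = 0.908), 0.34 ± 0.09 and 0.52 ± 0.09, so Lef1 and Foxo1 rose slightly and Tcf7 did not pass. Tcf7 and Lef1 are also high in thymocytes, and their levels were much higher in mice 1 and 4, with 1431 and 921 CPM at 12h, against 1527 and 1193 CPM at 6h for Tcf7.

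DNA replication genes rose almost as a block in mice 2, 3 and 5. Of 43 members 42 rose and 0 fell, with a median of 1.22, and the 1 that did not pass was the licensing factor Cdt1 at 0.09 ± 0.10 (adjusted p = 0.413). With 5 mice 3 of 43 rose, and the median change of mice 1 to 5 was -0.60, 1.25, 1.34, 0.08 and 1.21. The origin recognition gene Orc1 had 17.9, 28.0, 22.3, 24.4 and 27.0 CPM at 12h in WT mice 1 to 5, against 25.8, 3.03, 3.48, 18.4 and 3.68 CPM at 6h. In mice 2, 3 and 5 Orc1 was low at 6h and rose by 2.91 ± 0.14 (adjusted p = 8.31e-92), while mice 1 and 4 already had the higher level at 6h. Cdc6, which loads the replicative helicase with Cdt1, had 41.8, 8.61, 8.50, 42.5 and 8.34 CPM at 12h in WT mice 1 to 5, against 57.6, 1.08, 1.399, 39.1 and 0.990 CPM at 6h, a change of 2.86 ± 0.20 in mice 2, 3 and 5. The helicase genes Mcm2, Mcm3 and Mcm6 were called with 5 mice too, at 1.30 ± 0.24, 1.38 ± 0.29 and 0.87 ± 0.18, while Mcm4 and Mcm5 changed by 2.02 ± 0.10 and 2.06 ± 0.10 in mice 2, 3 and 5. Mcm5 had 506, 525 and 519 CPM at 12h in WT mice 2, 3 and 5, against 132, 126 and 111 CPM at 6h. The helicase partners Gins2, Gins1 and Cdc45 changed by 2.73 ± 0.14, 2.71 ± 0.15 and 2.39 ± 0.13. Chaf1a, a chaperone that places histones on new DNA, changed by 3.09 ± 0.15 and had 19.6, 27.6 and 17.8 CPM at 12h in WT mice 2, 3 and 5, against 2.74, 2.97 and 1.79 CPM at 6h. Uhrf1, which brings the maintenance methyltransferase to replicated DNA, changed by 2.59 ± 0.11, and the checkpoint kinase Chek1 by 2.97 ± 0.12. Pcna, the sliding clamp, moved less, with 334, 268 and 367 CPM at 12h in WT mice 2, 3 and 5, against 222, 219 and 266 CPM at 6h and a change of 0.43 ± 0.10.

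Upstream of these, several G1 regulators rose and the inhibitor p21 fell. Ccne1 (cyclin E1) had 24.5, 24.6 and 25.9 CPM at 12h in WT mice 2, 3 and 5, against 8.30, 5.09 and 5.75 CPM at 6h, a change of 1.97 ± 0.13, E2f1 changed by 1.28 ± 0.13 and Cdk2, the partner of cyclin E, by 1.12 ± 0.10. Cdkn1a, which encodes p21, had 26.7, 18.8, 29.0, 27.0 and 27.0 CPM at 12h in WT mice 1 to 5, against 7.91, 121, 178, 44.4 and 120.0 CPM at 6h. Its levels in mice 2, 3 and 5 were several times lower at 12h, a change of -2.50 ± 0.10 (adjusted p = 3.64e-131), and in mouse 1 it was higher at 12h. Ccnd2 (cyclin D2), an earlier response, was at 1056, 1406 and 955 CPM at 12h in WT mice 2, 3 and 5, against 1310.3, 1455 and 1154 CPM at 6h and did not pass (-0.23 ± 0.10, adjusted p = 0.0528). Cdkn2c, an inhibitor of CDK4 and CDK6, rose by 1.63 ± 0.20. Over the whole list of 22 G1 genes, 12 rose and 4 fell, and with 5 mice 1 rose and 0 fell.

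E2F proteins bind the promoters of many replication genes, so the letters at the start of 2 of these genes are shown. They had the largest change among called members with a match and a mean of at least 5 CPM at the higher time. Windows on a single chromosome were left out of this choice. RefSeq promoter windows of 300 bases (250 before the start and 50 after it, build GRCm38.p6) were found by symbol for 34 of the 43 members. Each was searched on both strands for the E2F letters TTTCCCGC, TTTGGCGC, TTTCGCGC and TTTGCCGC. A match was present in 16 of the 34 members (47.1%), against 2.6% of 27025 genes with a window, and matches overlapped each other in 2 members. The matched letters are in capitals.
Orc1, chr4:108579204-108579503, plus strand: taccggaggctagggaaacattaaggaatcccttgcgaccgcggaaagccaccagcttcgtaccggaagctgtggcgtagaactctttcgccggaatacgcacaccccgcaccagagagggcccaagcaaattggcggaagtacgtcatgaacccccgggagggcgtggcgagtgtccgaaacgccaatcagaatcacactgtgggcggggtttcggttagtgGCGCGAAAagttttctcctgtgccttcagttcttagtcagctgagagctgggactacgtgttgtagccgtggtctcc
Cdc6, chr11:98907901-98908200, plus strand: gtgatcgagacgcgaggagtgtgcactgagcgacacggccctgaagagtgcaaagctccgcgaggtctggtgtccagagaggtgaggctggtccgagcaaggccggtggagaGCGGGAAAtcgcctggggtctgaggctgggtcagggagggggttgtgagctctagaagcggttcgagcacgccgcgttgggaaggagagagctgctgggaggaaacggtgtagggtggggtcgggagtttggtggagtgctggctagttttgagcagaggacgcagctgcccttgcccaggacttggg
A match describes the letters and is not a binding site shown in these cells.

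Mitotic genes started from very low levels in mice 2, 3 and 5 and from high ones in mice 1 and 4. Of 30 members, 16 rose and 3 fell in mice 2, 3 and 5, with a median of 0.54, and with 5 mice 0 were called. The median change of mice 1 to 5 was -1.91, 0.57, 0.44, -2.02 and 0.49, so the median was far below 0 in mice 1 and 4 over the same hours. Top2a, which untangles sister chromatids, had 445, 60.8, 60.2, 322 and 62.5 CPM at 12h in WT mice 1 to 5, against 2091, 26.6, 27.4, 1522 and 27.5 CPM at 6h. It rose by 1.16 ± 0.10 in mice 2, 3 and 5, and in mice 1 and 4 its log2 difference was -2.23 and -2.24. Bub1b, a spindle checkpoint kinase, rose by 1.62 ± 0.13, Ccnb1 (cyclin B1) gave 0.52 ± 0.31 (adjusted p = 0.137), and Foxm1 and Mki67 fell by small amounts (-0.46 ± 0.14 and -0.43 ± 0.13).

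Most listed p53 targets fell in mice 2, 3 and 5, Cdkn1a among them. The lists overlap, since Cdkn1a is also in the list of G1 genes and Bbc3 in that of the Bcl2 family. Of 19 members, 14 fell and 2 rose in mice 2, 3 and 5, with a median of -0.77, and with 5 mice 1 fell and 1 rose. Bbc3, the death activator PUMA, had 9.74, 13.5 and 11.3 CPM at 12h in WT mice 2, 3 and 5, against 30.9, 32.2 and 28.1 CPM at 6h, a change of -1.43 ± 0.12, and Phlda3, an AKT inhibitor, changed by -1.68 ± 0.13. Trp53 itself gave 0.20 ± 0.09 (adjusted p = 0.0576). In the Bcl2 family 4 rose and 8 fell of 14, and with 5 mice 2 rose and 0 fell. Bcl2l11, the death activator BIM, had 268, 280.3, 362, 284 and 293 CPM at 12h in WT mice 1 to 5, against 94.0, 186, 196, 132 and 173 CPM at 6h. No mouse had less Bcl2l11 at 12h than at 6h, and the change was 0.96 ± 0.15 with 5 mice (adjusted p = 0.0282). Bcl2l1, the survival protein Bcl-xL, changed by 0.70 ± 0.12 with 5 mice (adjusted p = 0.0334), and Mcl1 by -0.25 ± 0.10 in mice 2, 3 and 5.

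Sterol synthesis rose as a pathway in mice 2, 3 and 5 and not in mice 1 and 4. Of 24 members 21 rose and 0 fell there, with a median of 0.90, 0 were called with 5 mice, and the median change of mice 1 to 5 was -0.69, 0.97, 1.04, -0.59 and 0.79. Hmgcs1, which makes HMG-CoA, had 354, 399, 391, 314 and 376 CPM at 12h in WT mice 1 to 5, against 848, 143, 123, 657 and 132 CPM at 6h. Mice 2, 3 and 5 were higher at 12h (1.54 ± 0.10, adjusted p = 3.5e-52) and mice 1 and 4 were lower, so that the 5 mice were close to each other at 12h after being far apart at 6h. Fdft1 (squalene synthase), Mvd and Mvk of the mevalonate arm, and Cyp51 of the late steps changed by 1.58 ± 0.10, 1.56 ± 0.11, 1.55 ± 0.13 and 0.91 ± 0.10. Srebf2, the factor that drives the pathway, gave 0.20 ± 0.10 (adjusted p = 0.0667). The letters TCACNCCAC, the core of the sterol regulatory element, were searched in the same way and found in 1 of 16 members with a window (6.2%), against 1.4% of all genes, with no overlapping matches. The member was Hmgcs1, shown with the match in capitals.
Hmgcs1, chr13:119690101-119690400, plus strand: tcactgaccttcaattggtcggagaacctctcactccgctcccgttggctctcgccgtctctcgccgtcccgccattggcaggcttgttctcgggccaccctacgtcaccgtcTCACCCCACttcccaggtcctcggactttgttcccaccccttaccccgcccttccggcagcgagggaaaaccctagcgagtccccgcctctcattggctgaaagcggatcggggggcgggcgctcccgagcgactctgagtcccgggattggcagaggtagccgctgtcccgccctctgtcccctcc

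Fatty acid genes were mixed, with 9 rising and 2 falling of 15, and 0 called with 5 mice. Scd2, a desaturase, had 116, 143 and 109 CPM at 12h in WT mice 2, 3 and 5, against 28.4, 30.0 and 24.5 CPM at 6h, a change of 2.13 ± 0.10, and Elovl6, an elongase, changed by 1.22 ± 0.12. Fasn (fatty acid synthase) went the other way, with 474, 800.4 and 396 CPM at 12h in WT mice 2, 3 and 5, against 675, 789.7 and 569 CPM at 6h and a change of -0.35 ± 0.10.

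Of 22 genes of glucose transport and glycolysis, 13 rose and 6 fell in mice 2, 3 and 5, and 4 rose and 1 fell with 5 mice. Tpi1 had 217, 204 and 234 CPM at 12h in WT mice 2, 3 and 5, against 65.6, 62.8 and 58.7 CPM at 6h, a change of 1.79 ± 0.10, Eno1 changed by 0.94 ± 0.15 and Pkm by 0.66 ± 0.13 with 5 mice. Aldoa had 565, 915, 994, 774 and 987 CPM at 12h in WT mice 1 to 5, against 299, 702, 736, 419 and 597 CPM at 6h, higher at 12h within each mouse (0.66 ± 0.12 with 5 mice, adjusted p = 0.0372). Hk2 (hexokinase 2) changed by -0.69 ± 0.09, the glucose transporter gene Slc2a3 by -0.46 ± 0.09 with 5 mice, and Slc2a1 by -0.22 ± 0.09. Tpi1, Eno1 and other enzymes of this list have near-identical processed copies in the genome, so their counts are uncertain.

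Of 69 nuclear-encoded subunits of oxidative phosphorylation 60 rose and 4 fell in mice 2, 3 and 5, with a median of 0.53, and with 5 mice 2 rose and 0 fell. Their median was -0.33 in mouse 1 and 0.23 in mouse 4. Ndufb10 of complex I had 80.3, 75.6 and 95.02 CPM at 12h in WT mice 2, 3 and 5, against 42.5, 38.9 and 39.0 CPM at 6h, a change of 1.04 ± 0.10. Atp5g3 of the ATP synthase and Cox5a of complex IV were called with 5 mice, at 0.51 ± 0.11 and 0.48 ± 0.10. Cycs (cytochrome c), which has several processed copies, fell by contrast, at -0.67 ± 0.14. Of 77 mitochondrial ribosome genes 58 rose and 1 fell, with a median of 0.41, and with 5 mice 2 rose and 0 fell, with a median of -0.26 in mouse 1. Mrpl4 was 1 of the 2, at 0.79 ± 0.16 (adjusted p = 0.0477). Of 24 genes of the TCA cycle and glutamine use 16 rose and 0 fell, and with 5 mice 2 rose and 0 fell, with Cs (citrate synthase) at 0.51 ± 0.09 and Got2, a mitochondrial aminotransferase, at 0.69 ± 0.14 with 5 mice. Of 27 import and biogenesis genes 9 rose and 3 fell, and 0 were called with 5 mice.

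In nucleotide synthesis, Rrm1 and Rrm2, the ribonucleotide reductase subunits, changed by 1.18 ± 0.09 and 1.74 ± 0.16. Of 17 pyrimidine and deoxynucleotide genes 9 rose and 4 fell, and with 5 mice 0 rose and 1 fell. Of 14 purine genes 9 rose and 1 fell, and with 5 mice 2 rose and 0 fell, with Gart and Atic called with 5 mice (0.42 ± 0.09 and 0.48 ± 0.09) and Paics at 0.78 ± 0.10 in mice 2, 3 and 5. The serine and one-carbon list gave 7 rising and 4 falling of 14, and 0 called with 5 mice. Of its members, Shmt2 and Mthfd2, the mitochondrial folate enzymes, changed by -0.49 ± 0.10 and -0.32 ± 0.10.

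Transcripts of amino acid transporters and of the ATF4 response mostly fell in mice 2, 3 and 5. Of 16 amino acid transporters 11 fell and 1 rose in mice 2, 3 and 5, and with 5 mice 0 were called. Slc7a1, the cationic transporter for arginine and lysine, had 213, 244, 318, 224 and 232 CPM at 12h in WT mice 1 to 5, against 100.4, 459, 607, 253 and 454 CPM at 6h. In mice 2, 3 and 5 the 12h levels were below the 6h levels, a change of -0.95 ± 0.10, and mouse 1 was higher at 12h. Slc1a5, Slc7a5 and Slc3a2, carriers of glutamine and large neutral amino acids, changed by -0.97 ± 0.11, -0.96 ± 0.10 and -0.67 ± 0.10. Of 15 genes of the ATF4 stress response 12 fell and 0 rose, with a median of -0.79, and 0 were called with 5 mice. Chac1 (glutathione breakdown), Trib3 and Sesn2 changed by -2.34 ± 0.32, -1.47 ± 0.18 and -1.43 ± 0.13, while Atf4 itself changed by -0.27 ± 0.10. Polyamine and proline genes were mixed, with 3 rising and 4 falling of 19, and 0 called with 5 mice.

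Ribosome biogenesis had a median of -0.03 and 3 rising and 7 falling of 40, and 0 were called with 5 mice. The nucleolar proteins Npm1 and Ncl gave 0.48 ± 0.11 and 0.18 ± 0.11 (adjusted p = 0.15), so Npm1 rose and Ncl did not pass. Of 78 cytosolic ribosomal protein genes, whose counts are uncertain because of processed copies, 30 rose and 7 fell with a median of 0.15, and 0 were called with 5 mice. Of 42 initiation and elongation factors 22 rose and 3 fell, and of 20 aminoacyl-tRNA synthetases 7 rose and 2 fell. With 5 mice 2 and 1 members of these lists rose and 0 fell. Of 37 proteasome genes 30 rose and 4 fell in mice 2, 3 and 5, with a median of 0.47, and with 5 mice 0 were called. Their median was -0.20 in mouse 1 and 0.27 in mouse 4. Psmd1 of the regulatory particle had 614, 554 and 658 CPM at 12h in WT mice 2, 3 and 5, against 317, 360.1 and 329.5 CPM at 6h, a change of 0.84 ± 0.10, and Psma1 of the core changed by 0.78 ± 0.10. The 4 that fell were Psmb9, Psmb10, Psme1 and Psme2, interferon-inducible subunits and activators of the immunoproteasome. Psme2 changed by -0.61 ± 0.10 and Psmb9 by -0.38 ± 0.09. Psmb8, another immunoproteasome subunit in the list, was not among those that fell. Of 15 cytosolic chaperone genes 8 rose and 1 fell, and of 20 endoplasmic reticulum genes 4 rose and 7 fell. With 5 mice 1 chaperone gene rose and 0 endoplasmic reticulum genes were called.

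Interferon-stimulated genes fell in mice 2, 3 and 5 and in part in all 5 mice. Of 30 members 26 fell and 0 rose in mice 2, 3 and 5, with a median of -1.42, and with 5 mice 11 fell and 0 rose, with a median of -0.88. Irf7, the factor that amplifies the interferon response, had 31.6, 12.5, 8.93, 28.6 and 7.42 CPM at 12h in WT mice 1 to 5, against 22.0, 54.0, 34.3, 42.8 and 31.3 CPM at 6h. Mouse 1 was higher at 12h, mouse 4 lower, and mice 2, 3 and 5 changed by -2.06 ± 0.12 (adjusted p = 2.42e-68). Ifit3, which blocks translation of viral RNA, had 1.00, 7.06, 4.03, 2.77 and 5.74 CPM at 12h in WT mice 1 to 5, against 1.62, 20.9, 12.7, 6.81 and 22.4 CPM at 6h, a change of -1.48 ± 0.21 with 5 mice (adjusted p = 0.0207). Isg15, a ubiquitin-like modifier, changed by -1.62 ± 0.15 and Gbp2, a guanylate-binding protein gene, by -0.81 ± 0.11. Of 11 genes of MHC class I presentation 9 fell and 2 rose in mice 2, 3 and 5, and 0 were called with 5 mice, with B2m at -0.73 ± 0.11, H2-K1 at -0.73 ± 0.11 and Nlrc5, which activates the class I genes, at -0.96 ± 0.10. The H2 genes share near-identical copies, so the count of H2-K1 is uncertain. Of 8 markers of myeloid and dendritic cells tested in mice 2, 3 and 5, 4 fell and 1, Lyz2, rose. The 15 markers of that list summed to between 20.3 and 37.5 CPM at 12h in these mice, against 25.8 to 31.8 CPM at 6h. The part of such cells in the falls of interferon-stimulated and class I genes was not tested.

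The letters GAAANNGAA, the core of the interferon-stimulated response element, were searched on both strands of the same windows. They were found in 16 of 23 interferon-stimulated members with a window (69.6%), against 9.8% of all genes, and matches overlapped in 7 members. The 2 members shown had the largest change among called members with a match and at least 5 CPM. Windows on the same single chromosome as before were left out of this choice.
Ifit3, chr19:34583279-34583578, plus strand: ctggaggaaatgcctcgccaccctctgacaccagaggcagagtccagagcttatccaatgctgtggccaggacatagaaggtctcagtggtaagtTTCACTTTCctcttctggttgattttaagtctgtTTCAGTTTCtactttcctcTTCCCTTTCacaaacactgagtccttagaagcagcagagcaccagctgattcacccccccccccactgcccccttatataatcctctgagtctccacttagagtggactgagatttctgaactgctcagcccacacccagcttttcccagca
Ifih1, chr2:62646206-62646505, minus strand: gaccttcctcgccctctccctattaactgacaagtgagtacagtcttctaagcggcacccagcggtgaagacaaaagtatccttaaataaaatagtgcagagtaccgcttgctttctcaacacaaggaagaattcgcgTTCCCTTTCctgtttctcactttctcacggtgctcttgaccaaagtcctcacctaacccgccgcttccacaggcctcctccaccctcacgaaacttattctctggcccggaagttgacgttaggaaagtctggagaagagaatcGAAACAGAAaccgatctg
Ifih1, an RNA sensor, changed by -1.71 ± 0.12 in mice 2, 3 and 5.

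The remaining lists were mixed in mice 2, 3 and 5. Redox genes gave 12 rising and 4 falling of 20, with Txn1 (thioredoxin) at 1.29 ± 0.10, Gpx1 (glutathione peroxidase) at 1.13 ± 0.10 and Srxn1 at -2.05 ± 0.13. DNA methylation and Polycomb genes gave 5 rising and 4 falling of 17, with Dnmt1, the maintenance methyltransferase, at 1.24 ± 0.10 and Dnmt3a, the de novo enzyme, at -0.61 ± 0.10. Lysosome and autophagy genes gave 6 rising and 7 falling of 20, HIF targets 5 rising and 3 falling of 15, and RNA polymerase I and III genes 5 rising and 11 falling of 23. With 5 mice, 1 redox gene and 1 of 16 HIF targets fell, 2 of 21 lysosome genes and 1 polymerase gene rose, and 0 of the DNA methylation list were called. Outside the lists, Igfbp4, which binds insulin-like growth factors, changed by 3.65 ± 0.15, and Hadh, an enzyme of mitochondrial fat oxidation, by 2.60 ± 0.11.

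The step was then set against the same 6h to 12h step in KO mice, as a difference of the log2 changes. With all 5 WT mice, 0 of 12277 genes passed in edgeR, 1247 had an unadjusted p under 0.05, and DESeq2 called 86. Without WT mice 1 and 4, 743 of 12239 passed, 268 with a higher change in WT (2.19%) and 475 with a lower one (3.88%). With the size factors of DESeq2 in place of TMM the split was 219 higher and 717 lower. This count depended on single mice. It was 10 without WT mouse 2, 3 without WT mouse 5, 95 without KO mouse 4, 451 without KO mouse 3 and 1209 without KO mouse 1, and the calls named next are read with that limit. The median difference over all tested genes was 0.04.

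Of 40 receptor-induced regulators, 19 had a lower change in WT and 1 a higher one, against 3.88% and 2.19% over all genes. Their median log2 change was -0.88 in the fit of WT mice 2, 3 and 5 and -0.52 in KO mice, so both medians were below 0. Nr4a3 had 254, 307 and 201 CPM at 12h in WT mice 2, 3 and 5, against 790.1, 911 and 744 CPM at 6h, and it had 685, 610.4, 622, 617 and 774 CPM at 12h in KO mice 1 to 5, against 1483, 1102, 1223, 1220.3 and 1022 CPM at 6h. The difference between the steps was -0.83 ± 0.15 on the log2 scale (adjusted p = 0.0132). For Nfatc1 the difference was -1.05 ± 0.16 (adjusted p = 0.00862), with a KO change of -0.17, and for Egr1 it was -0.76 ± 0.14 with a KO change of -0.76. Sema7a, a membrane semaphorin, had 104, 136 and 92.8 CPM at 12h in WT mice 2, 3 and 5, against 408, 459.9 and 357 CPM at 6h, and it had 432, 266, 316, 307 and 459 CPM at 12h in KO mice 1 to 5, against 670.3, 504, 593, 513 and 561 CPM at 6h, a difference of -1.19 ± 0.14 (adjusted p = 0.00184). Hivep3, Runx1 and Map2k3 differed by -1.34 ± 0.28, -1.07 ± 0.25 and -1.09 ± 0.19, the first 2 being transcription factor genes.

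Of 24 sterol genes 9 had a higher change in WT and 0 a lower one, with medians of 0.90 in WT mice 2, 3 and 5 and 0.49 in KO mice. Fdft1 differed by 0.78 ± 0.13 (adjusted p = 0.0089) and Hmgcs1 by 0.69 ± 0.12 (adjusted p = 0.0104). Ccr7 had 1051, 1018 and 1179 CPM at 12h in WT mice 2, 3 and 5, against 328, 297 and 244 CPM at 6h, and it had 747, 764, 813, 809 and 625 CPM at 12h in KO mice 1 to 5, against 374, 384, 454, 423 and 424 CPM at 6h, a difference of 1.04 ± 0.14 (adjusted p = 0.00365). Gzmb had a KO change of 2.72 and a difference of 0.86 ± 0.17 (adjusted p = 0.02). Bcl2l11 differed by 0.85 ± 0.13, Cyth3 by 1.14 ± 0.15, and Arrdc3, an arrestin-like gene, by 1.16 ± 0.20. For DNA replication genes, 1 of 43 had a higher and 2 a lower change in WT, with medians of 1.22 in WT mice 2, 3 and 5 and 1.37 in KO mice. For interferon-stimulated genes 2 of 30 were higher and 1 lower, with medians of -1.42 in WT mice 2, 3 and 5 and -1.44 in KO mice. A difference that did not pass does not show that the steps were alike. These calls too rest on the mice named above, since 10 genes or fewer passed without WT mouse 2 or WT mouse 5 and 95 without KO mouse 4.

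**Figure D4:**
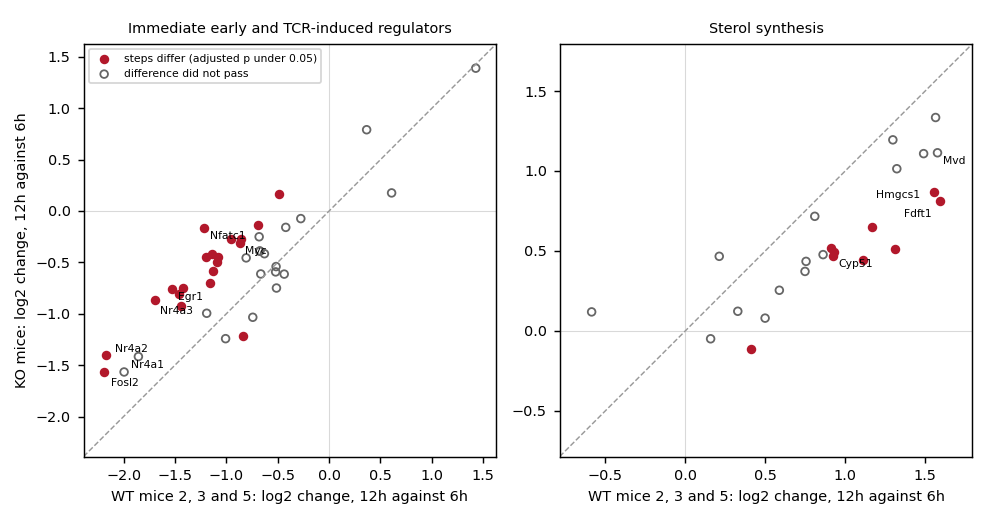
Log2 change of 12h against 6h in WT mice 2, 3 and 5 (x axis) and in KO mice (y axis) for 40 receptor-induced regulators (left) and 24 sterol synthesis genes (right), with the dashed line marking equal change. Filled red points passed the test of the difference, 19 with a lower and 1 with a higher change in WT on the left and 9 with a higher change on the right.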

How the data were processed

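Messenger RNA was read as 50 nt single-end reads from stranded poly(A) libraries (labels' protocols). Tools listed in the submitters' processing notes are CASAVA 1.8.2, STAR 2.4 and featureCounts 1.4.6, with GRCm38 as the genome build. The annotation release, the strand setting and the handling of multi-mapping reads are not given in the sources used here, so counts of antisense pairs and of near-identical copies are uncertain. The authors deposited raw counts per gene for 21647 genes with no normalization. The table holds 0 mitochondrially encoded genes, 64 genes had no symbol, and 0 columns were left out.

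Counts of the 10 WT libraries at 12h and 6h were tested in edgeR 4.0.16 (R 4.3.3) by quasi-likelihood with mouse as a block, after filterByExpr (minimum count 10, minimum total 15) and TMM, with Benjamini-Hochberg adjustment over all tested genes, and again without mice 1 and 4. The labels give a mouse number, so the 2 libraries of a number come from 1 animal, and their deviations from the group means correlated by 0.748 to 0.816 across genes (0.287 to 0.440 in mice 2, 3 and 5). The WT step minus the KO step was fitted on the 6h and 12h libraries of both genotypes with mouse as a block. With 3 mice the fit has 2 residual degrees of freedom and takes most of its information on spread from all genes together, which makes its p values depend on that shared estimate. CPM used TMM over all 50 libraries and log2 CPM a prior count of 2. The 5 pairs cannot give an exact two-sided p under 0.0625 for a summed level, so none is given. The scripts were tested on simulated counts.

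The comparison, the 39 gene lists and the marker lists were chosen with earlier results of these data known, and lists are described by counts and medians with no test. Named genes are those with the largest changes among called genes with at least 20 CPM at the higher time and the same sign in each mouse (12 per direction), the 5 members per list with the smallest p, the 8 per direction with the largest WT minus KO difference, and members at the extremes of a list. The text names a subset of these and some further list members, picked after their values were seen. Genes without a standard symbol are not named, and some results are not reported here. Alternatives were another normalization, no filter, DESeq2 1.42.0, limma-voom (limma 3.58.1), no block, more libraries in the fit, and leaving out each mouse. Promoter windows and their build are from RefSeq.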

Additional observations from a re-analysis of the deposited data

Results flagged for a closer look

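For 9 of 201 named genes, the 12h against 6h difference of 1 WT mouse lay far from those of the other 4. How often chance alone would set a mouse apart in this way was not tested for these data. Mouse 1 stood apart with a log2 difference of 2.45 for Nr4a2, 2.30 for Tnfrsf9, 1.92 for Prf1, 1.05 for Xcl1, 0.425 for Tnfrsf4 and -0.602 for Npm1. Mouse 4 stood apart with 1.66 for Cd44 and 0.438 for Cd8a, and mouse 2 with -0.961 for Dntt, where its levels were at most 2.03 CPM. Mice 1 and 4 are the animals with the immature thymocyte genes, and the part of those cells in these values was not tested.

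For 43 of the 201 named genes the WT step of mice 2, 3 and 5 differed from the KO step in the edgeR test of the difference (log2, WT minus KO). Up to 8 genes per direction were named because they passed this same test. The count of 43 is thus set in part by that choice and is not a result about the named genes. The difference was above 0 for Arrdc3 (1.16), Cyth3 (1.14), Gprin3 (1.06), Ccr7 (1.04), Tnfsf10 (1.03), Plp2 (0.932), Scd2 (0.893), Hadh (0.866), Gzmb (0.858), Bcl2l11 (0.853), Cd226 (0.803), Fdft1 (0.783), Hmgcs1 (0.686), Themis (0.613), Cd44 (0.572), Ifng (0.549), Tnfrsf4 (0.541), Cyp51 (0.459) and Tnfaip3 (0.376). It was below 0 among transcription factor genes for Hivep3 (-1.34), Runx1 (-1.07), Nfatc1 (-1.05), Nr4a3 (-0.833), Egr1 (-0.764), Nr4a2 (-0.762), Junb (-0.753), Tbx21 (-0.731), Fosl1 (-0.681), Egr3 (-0.678), Egr2 (-0.655), Fosl2 (-0.622) and Myc (-0.555). It was also below 0 for Sema7a (-1.19), Map2k3 (-1.09), Dop1b (-1.02), Dnmt3a (-0.892), Xdh (-0.882), Hk2 (-0.792), Slc7a5 (-0.739), Cdt1 (-0.728), Prf1 (-0.718), Parp12 (-0.638) and Ifih1 (-0.563). Over all genes this test called 743 of 12239 (2.19% higher and 3.88% lower in WT). It called 10 without WT mouse 2, 3 without WT mouse 5 and 95 without KO mouse 4.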

How the results depend on the processing

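In WT with 5 mice (275 higher, 217 lower), the counts were 814 and 772 with DESeq2, 22 and 3 with all times of the same mice in the fit, 59 and 22 with all groups and no replicate block, and 3362 and 3348 without mice 1 and 4. Leaving out 1 mouse gave 2 to 1308 higher and 0 to 1332 lower. With mice 2, 3 and 5 (3362 higher, 3348 lower), the counts were 866 and 806 with all times in the fit and 1285 and 1440 with all groups. Leaving out 1 mouse gave 2746 to 3112 higher and 2557 to 3043 lower. Without the replicate block, the pairing by mouse, the counts were 7 and 0 with 5 mice and 2504 and 2374 with mice 2, 3 and 5, and 16 and 10 for the WT minus KO difference with 3 WT mice. The block thus moved the first and the last of these comparisons by over 1.5 times. For that difference (268 higher, 475 lower), DESeq2 size factors gave 717 lower and DESeq2 987 lower, and leaving out 1 mouse gave 0 to 401 higher and 3 to 835 lower. With 5 WT mice it gave 0 and 0, also without the replicate block, against 43 and 43 by DESeq2. Among named genes called in at least 1 of the 2 fits, the direction turned without mice 1 and 4 for Top2a (1.16), Themis (0.26), Prf1 (-0.47), Il2ra (-0.23) and Slc2a1 (-0.22). None of them was called with 5 mice. Genes called in neither fit are not in that count and could turn too, such as Ccnb1 (-0.857 with 5 mice, 0.518 without mice 1 and 4). Of the 30 G2 and mitosis genes, 11 had the same sign in both fits. The cause of these differences was not tested. Of 191 named genes called with mice 2, 3 and 5, 122 held under each alternative tried, and of 58 called with 5 mice, 0 did. Under the 3 scalings the median of 2 of 39 lists, HIF targets and lysosome genes, changed sign, both within 0.03 of 0. Genes at a few CPM, such as Cdc6 and Chac1, rest on few counts.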

Other observations

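Genes called for the 6h to 12h step had their highest and lowest means at different times of the course. Of the 3362 genes that rose in WT mice 2, 3 and 5, 856 peaked before activation, 283 at 2h, 988 at 12h and 1235 at 24h by their mean. Their lowest mean lay before activation for 638, at 2h for 1351, at 6h for 1121 and at 24h for 252. Of the 3348 that fell, 791 peaked before activation, 1107 at 2h, 1131 at 6h and 319 at 24h. The lowest mean of these lay before activation for 850, at 2h for 367, at 12h for 934 and at 24h for 1197. These are descriptions of means over 3 mice, with no test of the times of peak or lowest level. The genes were picked for a change between 6h and 12h in these same libraries, which limits where their peaks can lie. No share over all genes is given.

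A few genes outside the described groups moved strongly in mice 2, 3 and 5. Xdh, which makes uric acid from purines, changed by -2.61 ± 0.11, and Ramp3, a partner of peptide hormone receptors, by -2.62 ± 0.11. Frmd4b, Dop1b and Kansl1l changed by -2.49 ± 0.14, -2.38 ± 0.10 and -2.24 ± 0.11. Dtl and Fignl1, which act in replication control and DNA repair, changed by 3.16 ± 0.11 and 2.88 ± 0.11. Foxp3, the regulatory T cell factor that activated cells can also express, had 3.68, 4.14 and 2.44 CPM at 12h in mice 2, 3 and 5, against 0.332, 1.31 and 0.613 CPM at 6h. The other CD4 T cell markers did not rise with it. Cd40lg fell by a log2 change of -2.21 and Zbtb7b gave -0.595 (edgeR adjusted p = 0.105). Cd4 stayed under 1 CPM in these libraries. The cells behind these values were not tested.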
